A study of Mus musculus with 6 samples.

Results

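The genes described here copy the genome in S phase and part the copies in mitosis. They were chosen by symbol as a fixed list of 41 genes, and each of the 41 matched exactly 1 of the 52636 rows of the deposited table. By role the list holds 16 genes of origin licensing and the replicative helicase, 7 of DNA elongation, 3 of nucleotide supply, 2 E2F transcription factors and 13 genes of mitosis. The first 3 roles, 26 genes in all, are called the S-phase genes below. Genes were matched by symbol alone, but the list was drawn up with earlier results of these data known.

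The data are RNA-seq counts per gene from mouse embryoid bodies (EBs), which are aggregates of embryonic stem cells (ESCs) that begin to differentiate when factors that hold them pluripotent are removed. The comparison asks how the transcriptome of such EBs differs when Tnfaip2, a gene induced by TNF and NF-kappaB signalling, is disrupted. EBs of the wild-type (WT) parental ESC line E14 were compared with EBs of a Tnfaip2-/- line made from it with CRISPR-Cas9, which carries a premature stop codon in the second exon. Cells of both genotypes spent 3 days in hanging drops of ESC medium with Leukemia Inhibitory Factor, and the EBs were then plated on gelatin for 3 days of differentiation in medium without it. There were 3 samples of each genotype, with total counts of 22987433, 22489903 and 23804489 in WT and of 22480962, 21765931 and 21986960 in Tnfaip2-/- EBs. Each genotype is 1 line, the Tnfaip2-/- line being a single clone, and the study describes the samples of a genotype as biological replicates, although the labels do not say whether they are separate cultures. The p-values below therefore measure the spread between these samples, and do not separate the edited gene from other properties of the clone.

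Levels are given as CPM, the counts of a gene scaled to a library of 1000000 counts with edgeR's TMM factors, and as CPM per kilobase of exon (RPKM) where genes are compared with each other. A gene was called higher or lower in Tnfaip2-/- EBs when edgeR's quasi-likelihood test gave it an adjusted p below 0.05. Tnfaip2 itself was barely read, with 7, 4 and 7 counts in WT and 0, 2 and 2 counts in Tnfaip2-/- EBs, under the expression filter of the test. Without that filter its log2 fold change was -2.05 (adjusted p = 0.0133, edgeR's quasi-likelihood test), and DESeq2 gave an adjusted p of 0.0923. The size is uncertain, since each Tnfaip2-/- count was under 3 and the WT mean was 1.93 times the level of 3 counts. The direction matches the labels, but a premature stop need not remove the RNA, so that these counts are a weak check.

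The marker genes of the EBs differed between the genotypes as well. Of 6 pluripotency genes, Zfp42, Nanog and Sox2 were higher and Klf4, Pou5f1 and Esrrb lower in Tnfaip2-/- EBs, and the summed level of the 6 genes was 1801, 1796 and 1817 CPM in WT and 1675, 1659 and 1662 CPM in Tnfaip2-/- EBs. Pou5f1 (Oct4), the most abundant of them per length in WT EBs, was at 760 ± 9.63 CPM in WT and 419 ± 5.97 CPM in Tnfaip2-/- EBs (mean ± SD, n = 3), where Zfp42 was the most abundant per length. All 6 primitive streak and mesoderm genes were lower, their sum being 88.2, 87.2 and 86.9 CPM in WT and 21.4, 18.8 and 22.5 CPM in Tnfaip2-/- EBs. In WT EBs their most abundant gene per length was T, the defining factor of the streak, and in Tnfaip2-/- EBs it was Eomes. T was at 34.6 ± 2.12 CPM in WT and near 0 in Tnfaip2-/- EBs, at 0.134 ± 0.0875 CPM. The 4 neural genes were lower too, with sums of 107, 107 and 99.7 against 46.6, 44.8 and 45.9 CPM, and Sox1 led them per length. Endoderm genes stayed low in all samples, between 19.1 and 21.9 CPM summed over 5 genes with Gata4 the most abundant per length, and of these 2 were higher and 1 lower. Fibroblast genes, which would mark feeder cells, were low in all samples. Their sum over 6 genes was 8.56, 9.91 and 8.47 CPM in WT and 5.81, 6.3 and 6.85 CPM in Tnfaip2-/- EBs. Thy1 was the most abundant per length, and Lum had no count in the Tnfaip2-/- EBs. Of the 6 genes, 2 were lower, 2 not called and 2 too low to test. Marker levels thus moved with the genotype, and their part in the values below was not tested.

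Before S phase a cell licenses its origins of replication. The origin recognition complex (ORC) with Cdc6 and Cdt1 loads a ring of MCM proteins onto DNA, and Cdc45 and the GINS complex later turn this ring into the active helicase, at which the polymerases assemble. Many genes of this machinery are transcribed from the end of G1 by E2F factors, which the retinoblastoma protein and its relatives restrain, whereas the genes of mitosis are transcribed later, in G2, through promoter elements known as CHR and CCAAT boxes. Pluripotent mouse cells are known for a short G1 phase and rapid division, and G1 lengthens as they differentiate.

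The S-phase genes and the mitotic genes moved in different directions. Of the 26 S-phase genes, 18 were lower, 4 higher and 4 not called in Tnfaip2-/- EBs, and the median of their log2 fold changes was -0.15. The count of 4 was less stable than that of 18, at 2 with DESeq2, 2 without WT replicate 1 and 6 with total-count or upper quartile scaling. Of the 13 mitotic genes, 9 were higher, 3 lower and 1 not called, with a median of 0.23. Calls were common in these data. Over the 17849 genes tested, 67.7% were called, with 33.7% lower and 34.0% higher, and the median log2 fold change was 0.003. The share of the 41 genes that were called, 85.4%, is therefore to be read beside a high background, and among the 6395 tested genes at or above the level of the lowest of the 41 it was 80.5%. In that more abundant group 42.4% of genes were lower and 38.2% higher, beside 69.2% lower among the S-phase genes and 69.2% higher among the mitotic genes.

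Most changes were small but larger than the spread between samples. The samples did not overlap between genotypes for 35 of the 41 genes, beside 69.4% of all tested genes. That background share includes genes below the level of the 41, and it was not worked out for genes at their level. The median size of the log2 fold change, without its sign, was 0.22 over the 41 genes, 0.30 over all tested genes and 0.216 over the 6395 genes at or above the level of the lowest of the 41. When the test asked for a change beyond 1.5-fold in either direction, 15.7% of all tested genes passed (6.63% lower and 9.05% higher), and among the 41 genes Gins2 alone did. In bulk samples a lower share of cells in a phase and less RNA per cell cannot be told apart.

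**Figure D1:**
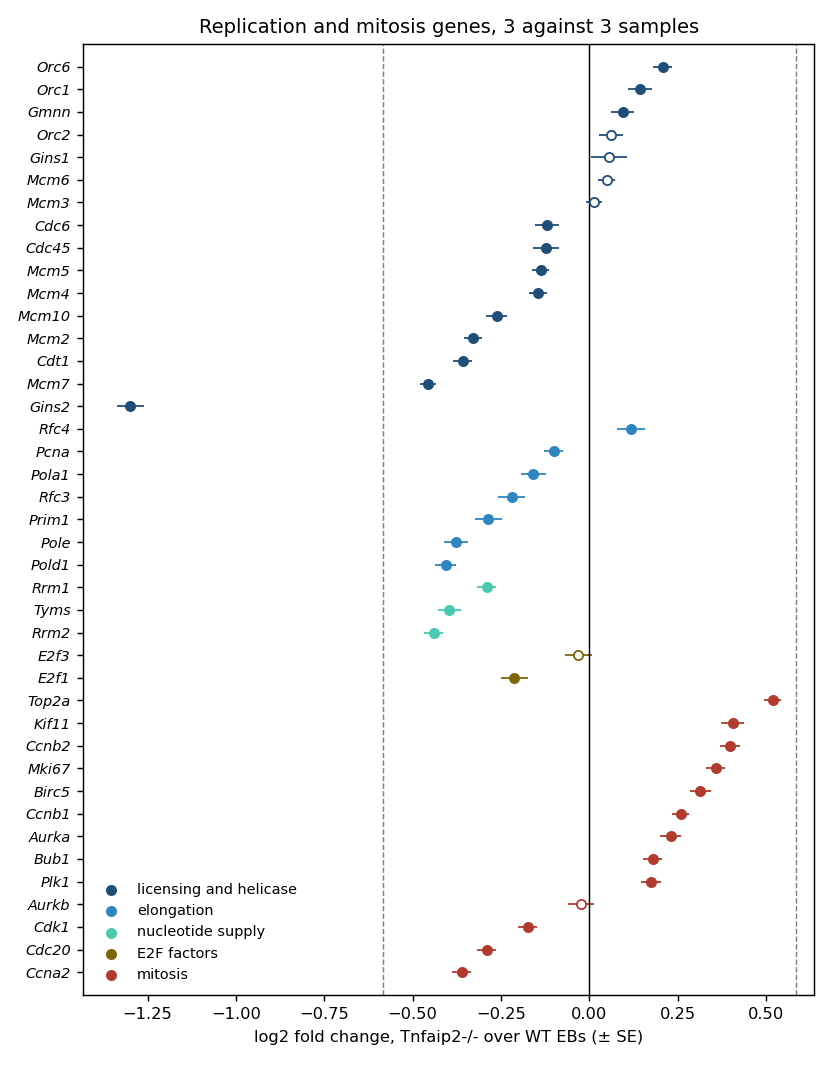
Log2 fold change of each of the 41 genes, Tnfaip2-/- over WT EBs, with its standard error, grouped and coloured by role. Filled points are genes called by edgeR's quasi-likelihood test, open points are genes not called, and dashed lines mark a 1.5-fold change, which Gins2 alone passes.

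Summed over each class, the difference was seen in every sample. The 26 S-phase genes together reached 6130, 6143 and 6098 CPM in WT and 5349, 5306 and 5396 CPM in Tnfaip2-/- EBs. The 13 mitotic genes together reached 2870, 2895 and 2883 CPM in WT and 3380, 3300 and 3338 CPM in Tnfaip2-/- EBs. Neither sum overlapped between the genotypes, and the first fell by 12.6% while the second was 15.8% higher in Tnfaip2-/- EBs. Per length the mitotic sum was 10.2% higher, and without Top2a, its most abundant gene in counts, the CPM sum of the other 12 was 8.14% higher. The ratio of the summed RPKM of S-phase to mitotic genes, which cancels the scaling of a sample, was 2.05, 2.07 and 2.05 in WT and 1.67, 1.68 and 1.67 in Tnfaip2-/- EBs. The ratio sets a sum over 26 genes against a sum over 13, so that its level depends on the number of genes, and only its shift between the genotypes is read here. Per gene, the mean log2 RPKM of the S-phase genes was 5.35, 5.36 and 5.35 in WT and 5.16, 5.13 and 5.16 in Tnfaip2-/- EBs, and that of the mitotic genes was 5.63, 5.63 and 5.64 in WT and 5.80, 5.77 and 5.79 in Tnfaip2-/- EBs. The mean was thus lower for S-phase than for mitotic genes in all samples, and the gap was wider in each Tnfaip2-/- sample.

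**Figure D2:**
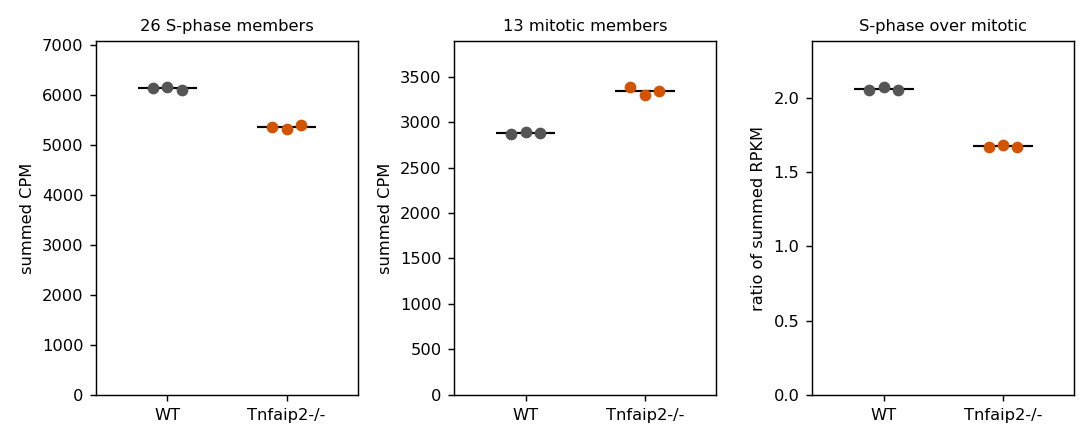
Summed CPM of the 26 S-phase genes (left) and of the 13 mitotic genes (middle), and the ratio of their summed RPKM (right), in each sample. Points are samples, lines are means of 3 samples, and all axes start at 0; the ratio lies between 2.05 and 2.07 in WT and between 1.67 and 1.68 in Tnfaip2-/- EBs.

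The promoters of the classes were compared because S-phase genes were mostly lower and mitotic genes mostly higher, with exceptions in each class. RefSeq promoter windows of 300 bases (GRCm38.p6) were at hand for 34 of the 41 genes, in 37 windows, and for 11143 tested genes; Aurkb, Ccna2, Gins1, Gins2, Gmnn, Mcm4 and Pole had none. They were searched on both strands for E2F words (TTTCCCGC, TTTCGCGC, TTTGCCGC and TTTGGCGC), CHR words (TTTGAA and TTCGAA) and the CCAAT box (CCAAT). Words of different kinds may share bases, and E2F words may overlap each other. An E2F word was present for 10 of the 21 S-phase genes with a window (47.6%) and for 1 of the 11 mitotic genes (9.09%), beside 4.68% of tested genes. A CHR word was present for 4 of 21 S-phase genes (19.0%) and for 9 of 11 mitotic genes (81.8%), beside 16.2% of tested genes. CCAAT boxes were found in both classes, at 76.2% of S-phase and 90.9% of mitotic genes beside 43.2% of tested genes. Over all 32851 windows of the table the shares were 2.26% for E2F words, 19.2% for CHR words and 37.4% for CCAAT boxes.

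S-phase genes with and without an E2F word were mostly lower. Of the 10 genes with such a word 7 were lower (median log2 fold change -0.149), and of the 11 without 8 were lower (median -0.262). The only mitotic gene with an E2F word was Cdk1, which was lower in Tnfaip2-/- EBs. Of the 10 mitotic genes without, 9 were higher and Cdc20 was lower. With 1 gene in the first group no comparison was drawn. Ccna2, which was lower, and Aurkb, which was not called, have no window and are outside these counts. Of the 9 mitotic genes with a CHR word 7 were higher and Cdk1 and Cdc20 lower. Both mitotic genes without, Birc5 and Ccnb1, were higher. All 4 S-phase genes with a CHR word were lower, and of the 17 without 11 were lower, 3 higher and 3 not called. A match is a stretch of letters only, and binding was not measured. The sequences that follow are the 180 bases before a RefSeq start of 5 genes picked after their values were seen, with matched words in capitals on either strand. Mcm6 (chr1:128359706-128359885, reverse strand), a helicase gene that was not called, has overlapping E2F words and no CHR word. Mcm7 (chr5:138171884-138172063, reverse strand), a helicase gene that fell, has an E2F and a CHR word side by side before this start, while the window of its other RefSeq start holds neither word. The Mcm7 stretch lies in annotated exon of longer Mcm7 transcripts, with 62 bases also in exon of Ap4m1 on the other strand. Cdk1 (chr10:69352913-69353092, reverse strand), a mitotic gene that fell, has an E2F word and CHR words, and its last 26 bases lie in annotated Cdk1 exon. Kif11 (chr19:37376202-37376381, forward strand), a mitotic gene that rose, has a CHR word and a CCAAT box close to the start. Top2a (chr11:99024190-99024369, reverse strand), the mitotic gene with the largest rise of the 13, has 4 CHR words. The stretches of Mcm6, Kif11 and Top2a lie outside annotated genes.
Mcm6: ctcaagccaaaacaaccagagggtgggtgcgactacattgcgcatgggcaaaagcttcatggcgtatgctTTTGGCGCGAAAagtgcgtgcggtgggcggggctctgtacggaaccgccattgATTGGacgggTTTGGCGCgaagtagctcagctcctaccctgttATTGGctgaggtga
Mcm7: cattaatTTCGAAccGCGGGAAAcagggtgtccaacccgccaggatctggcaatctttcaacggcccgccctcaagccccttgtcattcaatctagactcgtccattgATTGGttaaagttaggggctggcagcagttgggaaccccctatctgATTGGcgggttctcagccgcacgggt
Cdk1: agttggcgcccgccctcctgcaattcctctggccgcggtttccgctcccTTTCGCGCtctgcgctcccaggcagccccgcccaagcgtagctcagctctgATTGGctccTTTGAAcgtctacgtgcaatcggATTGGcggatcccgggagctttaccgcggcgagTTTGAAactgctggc
Kif11: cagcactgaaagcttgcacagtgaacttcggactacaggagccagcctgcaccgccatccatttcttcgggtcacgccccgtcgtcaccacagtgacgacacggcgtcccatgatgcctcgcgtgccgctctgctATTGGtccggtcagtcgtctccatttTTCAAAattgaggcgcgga
Top2a: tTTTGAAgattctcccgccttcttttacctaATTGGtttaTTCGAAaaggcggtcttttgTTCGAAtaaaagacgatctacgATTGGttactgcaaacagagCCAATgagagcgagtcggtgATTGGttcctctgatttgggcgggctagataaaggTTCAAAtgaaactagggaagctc

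Among the 16 licensing and helicase genes, 9 were lower, 3 higher and 4 not called, with a median log2 fold change of -0.12. The highest members belong to ORC, the complex that marks origins. Orc6, its smallest subunit, was at 169, 170 and 170 CPM in WT and at 197, 199 and 191 CPM in Tnfaip2-/- EBs (log2 fold change 0.21 ± 0.0276 SE; adjusted p = 7.89e-09, edgeR's quasi-likelihood test). Orc1, an ATPase of the complex, was at 70.5, 72.2 and 73.0 CPM in WT and at 80.3, 78.9 and 79.0 CPM in Tnfaip2-/- EBs (0.14 ± 0.0351; adjusted p = 0.000391). For both genes all Tnfaip2-/- samples lay above all WT samples. Vps35 on the opposite strand covers 6.9% of the exon bases of Orc6 and was itself higher (370 and 491 CPM; 0.41), so that the size for Orc6 is less certain. Orc2 was not called (adjusted p = 0.116), at 87.8, 87.3 and 88.0 CPM in WT and 95.7, 87.4 and 91.4 CPM in Tnfaip2-/- EBs, and its samples overlapped. It was called higher with total-count (adjusted p = 0.0235) or upper quartile scaling (0.0243) and without Tnfaip2-/- replicate 2 (0.0302). Its value is uncertain, because 29.8% of its exon bases are shared with Nif3l1 on the opposite strand and the libraries do not record strand. The subunits outside the list did not move as a block either: Orc4 was higher (0.12), Orc3 not called and Orc5 lower (-0.63; adjusted p = 3.56e-20), and these were named after their values were seen.

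The loaders of the MCM ring were lower and their inhibitor was slightly higher. Cdt1, which brings the ring to ORC, was at 252 ± 5.4 CPM in WT and 196 ± 4.18 CPM in Tnfaip2-/- EBs (log2 fold change -0.36; adjusted p = 4.79e-16), and Cdc6, the ATPase that works with it, was at 85.1 ± 0.965 and 78.3 ± 1.8 CPM (-0.12; adjusted p = 0.00222; mean ± SD, n = 3, edgeR's quasi-likelihood test). Gmnn encodes geminin, which binds Cdt1 and blocks a further round of licensing, and it was at 95.8 ± 0.954 CPM in WT and 102 ± 3.1 CPM in Tnfaip2-/- EBs (0.09; adjusted p = 0.0107). The last call is close to the threshold and was lost under DESeq2 (adjusted p = 0.085), without the expression filter (0.0581), and without WT replicate 1 (0.0745), Tnfaip2-/- replicate 1 (0.0764) or Tnfaip2-/- replicate 3 (0.0582). Within samples the ratio of Cdt1 to Gmnn RPKM was 1.24, 1.25 and 1.19 in WT and 0.874, 0.905 and 0.91 in Tnfaip2-/- EBs. Cdt1 RNA thus lay above Gmnn RNA per length in each WT sample and below it in each Tnfaip2-/- sample.

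The 6 subunits of the MCM2 to MCM7 ring, which act in equal numbers in the complex, did not change alike. Mcm7 was at 661, 663 and 651 CPM in WT and at 472, 484 and 483 CPM in Tnfaip2-/- EBs (log2 fold change -0.46 ± 0.0235 SE; adjusted p = 4.94e-22). Mcm2 fell as well, from 571 ± 6.84 to 455 ± 16.6 CPM (-0.33; adjusted p = 7.02e-16), and Mcm4 and Mcm5 fell by less, with folds of 0.904 and 0.909. Mcm3, by contrast, was at 572, 561 and 563 CPM in WT and at 571, 574 and 566 CPM in Tnfaip2-/- EBs, with a 95% interval of the log2 fold change from -0.03 to 0.06. For Mcm6 the values were 422, 422 and 431 CPM in WT and 446, 429 and 444 CPM in Tnfaip2-/- EBs (adjusted p = 0.0726, not called by edgeR's quasi-likelihood test). Mcm6 was called higher with total-count scaling (adjusted p = 0.00528), upper quartile scaling (0.00646), a stricter expression filter (0.0413) and without Tnfaip2-/- replicate 2 (0.0377). Mcm3 and Mcm6 overlapped between genotypes while the other 4 subunits did not. Per length, the highest of the 6 subunits in WT was Mcm5 at 195 ± 1.13 RPKM and the lowest Mcm2 at 82.1 ± 0.983 RPKM. The ratio of the highest to the lowest subunit was 2.39, 2.35 and 2.39 in WT and 2.78, 2.68 and 2.68 in Tnfaip2-/- EBs, so that the subunit RNAs were less even in the latter. For Mcm7 17.7% of 51-base exon windows, the read length, also occur in other genes, including microRNAs of the same locus, so its count is less certain than those of the other subunits.

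The factors that activate the ring were led by Gins2, which encodes 1 of the 4 subunits of GINS. Gins2 (ENSMUSG00000031821, GRCm38 chromosome 8, 120578633 to 120589304) was at 99.6, 93.4 and 96.0 CPM in WT and at 39.0, 40.0 and 38.4 CPM in Tnfaip2-/- EBs. Its log2 fold change was -1.30 ± 0.039 SE (adjusted p = 3.96e-31, edgeR's quasi-likelihood test), the lowest of the 41 genes, and it lay at percentile 2.83 of all tested genes. Every Tnfaip2-/- sample was far below every WT sample. The size is uncertain, since 67.3% of its exon bases overlap Gse1 on the opposite strand, and Gse1, whose counts carry the same doubt, was also lower (59.6 and 39.5 CPM; -0.59). Gins1 was not called (adjusted p = 0.344), at 28.5, 30.4 and 30.6 CPM in WT and 30.2, 30.4 and 32.4 CPM in Tnfaip2-/- EBs, and its samples overlapped. The other two subunits lie outside the list and were named after their values were seen; Gins3 was not called and Gins4 was higher (0.24; adjusted p = 3.4e-08). Mcm10, which joins the helicase as it starts, was lower (153 ± 1.64 and 128 ± 3.57 CPM; -0.26; adjusted p = 1.27e-10), and Cdc45, which rides with it, slightly lower (70.7 ± 1.08 and 64.9 ± 2.46 CPM; -0.12; adjusted p = 0.00352).

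**Figure D3:**
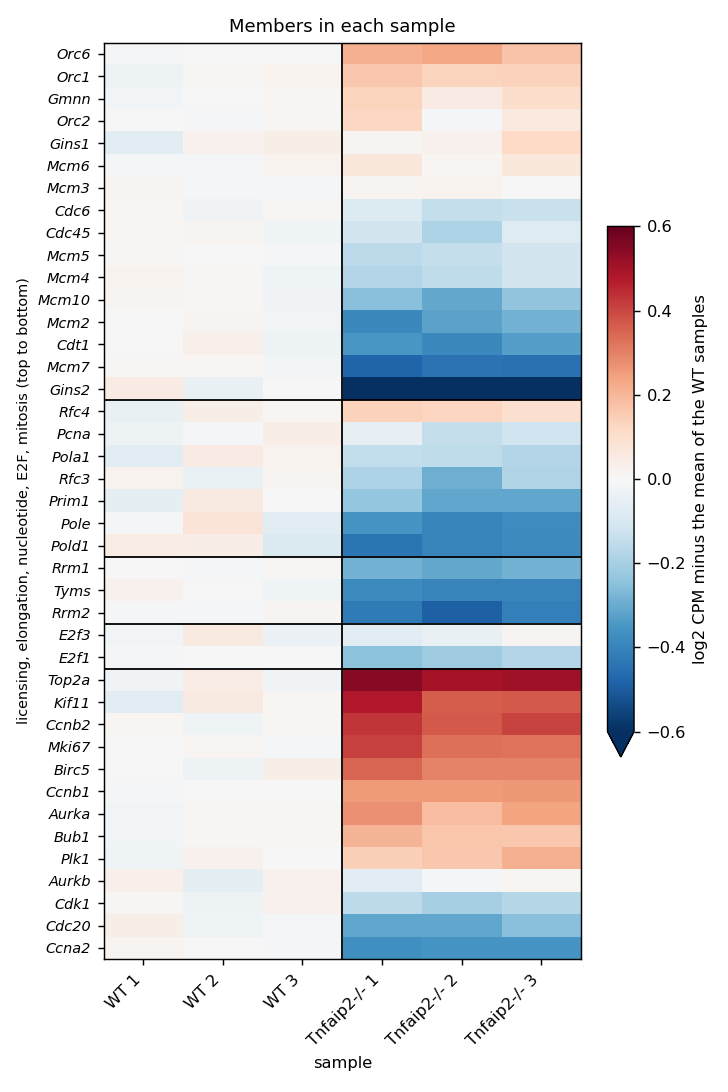
Log2 CPM of each of the 41 genes in each sample, minus the mean of the WT samples for that gene. Rows are genes, grouped from top to bottom as licensing and helicase, elongation, nucleotide supply, E2F and mitosis, columns are samples, and the colour scale ends at 0.6 in both directions, which Gins2 exceeds. Samples of a genotype look alike, and most blue rows lie in the upper groups and most red rows in mitosis.

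Of the 7 elongation genes, 6 were lower and 1 higher, with a median log2 fold change of -0.22. Pold1, the catalytic subunit of the polymerase that copies the lagging strand, was at 207, 206 and 189 CPM in WT and at 148, 152 and 154 CPM in Tnfaip2-/- EBs (-0.41 ± 0.0309 SE; adjusted p = 5.32e-16, edgeR's quasi-likelihood test). Pole, its counterpart on the leading strand, was at 118, 125 and 113 CPM in WT and at 92.8, 90.1 and 91.4 CPM in Tnfaip2-/- EBs (-0.38 ± 0.0342; adjusted p = 1.59e-13). All Tnfaip2-/- samples lay below all WT samples for both polymerases. The genes of the enzyme that primes each new strand were lower by less: Prim1, the primase, had a log2 fold change of -0.29 and Pola1, the polymerase attached to it, of -0.16.

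Among these genes the clamp had the smallest change. Pcna, the clamp that holds polymerases on DNA, was at 386, 391 and 405 CPM in WT and at 381, 357 and 363 CPM in Tnfaip2-/- EBs (-0.10 ± 0.0263 SE; adjusted p = 0.00079, edgeR's quasi-likelihood test). The gap between the lowest WT sample and the highest Tnfaip2-/- sample was narrow, and 18.9% of 51-base exon windows of Pcna also occur in Pcna-ps2, a pseudogene. Of the clamp loader, Rfc3 was lower (-0.22; adjusted p = 1.93e-06). Rfc4 was at 51.1, 54.0 and 53.3 CPM in WT and at 58.1, 57.7 and 56.4 CPM in Tnfaip2-/- EBs (0.12 ± 0.0396; adjusted p = 0.00741), higher in each Tnfaip2-/- sample. That call was lost under DESeq2 (adjusted p = 0.0779) and without WT replicate 1 (0.0884). Of the Rfc4 exon bases 12.7% are shared with Eif4a2 on the opposite strand. Eif4a2 was itself higher, at 693 CPM in WT and 729 CPM in Tnfaip2-/- EBs (log2 fold change 0.074).

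All 3 genes of nucleotide supply were lower, with a median log2 fold change of -0.40. Rrm2, the subunit of ribonucleotide reductase that rises in S phase, was at 319, 319 and 324 CPM in WT and at 239, 228 and 241 CPM in Tnfaip2-/- EBs (-0.44 ± 0.0264 SE; adjusted p = 1.33e-19, edgeR's quasi-likelihood test). Rrm1, the large subunit of the same enzyme, was at 269, 267 and 270 CPM in WT and at 221, 217 and 221 CPM in Tnfaip2-/- EBs (-0.29 ± 0.0258; adjusted p = 8.72e-14). Tyms, which makes thymidylate, was at 109, 107 and 105 CPM in WT and at 82.1, 81.1 and 81.1 CPM in Tnfaip2-/- EBs (-0.40 ± 0.0329; adjusted p = 1.01e-14). No sample overlapped between genotypes for any of the 3 genes, and their summed level fell by 22.8%. Per length Rrm2 exceeded Rrm1 in all samples, by ratios of 4.72, 4.74 and 4.76 in WT and 4.31, 4.17 and 4.35 in Tnfaip2-/- EBs.

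Of the E2F factors on the list, E2f1 was lower and E2f3 was not called. E2f1, an activator of S-phase genes, was at 61.8, 62.2 and 62.3 CPM in WT and at 52.4, 53.5 and 54.9 CPM in Tnfaip2-/- EBs (-0.21 ± 0.0386 SE; adjusted p = 4.79e-06, edgeR's quasi-likelihood test). E2f3, a further activator, was at 60.7, 63.7 and 60.0 CPM in WT and at 58.8, 59.5 and 62.2 CPM in Tnfaip2-/- EBs (adjusted p = 0.499), and its samples overlapped. The ratio of E2f3 to E2f1 RPKM was 0.57, 0.595 and 0.56 in WT and 0.652, 0.646 and 0.658 in Tnfaip2-/- EBs, without overlap.

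Among the 13 mitotic genes, 9 were higher in Tnfaip2-/- EBs. Top2a, the topoisomerase that untangles the copied chromosomes, was at 622, 651 and 623 CPM in WT and at 923, 893 and 900 CPM in Tnfaip2-/- EBs (0.52 ± 0.0239 SE; adjusted p = 7.17e-24, edgeR's quasi-likelihood test). Kif11, the motor that pushes the spindle poles apart, was at 128, 139 and 135 CPM in WT and at 187, 172 and 173 CPM in Tnfaip2-/- EBs (0.41 ± 0.0321; adjusted p = 2.1e-15). In both genes each Tnfaip2-/- sample was well above each WT sample. The other 7 had log2 fold changes between 0.17 and 0.40: Ccnb2 and Ccnb1, the B-type cyclins that bind Cdk1 for entry into mitosis (0.40 and 0.26), Mki67, the proliferation marker that coats mitotic chromosomes (0.36), Birc5, the survivin subunit of the chromosomal passenger complex (0.31), Aurka, a kinase of the spindle poles (0.23), Bub1, a kinase of the spindle checkpoint (0.18), and Plk1, a kinase with many roles in mitosis (0.17). Pseudogenes hold 23.2% of the 51-base exon windows of Ccnb1, whose count is less certain for that reason.

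The 3 mitotic genes that were lower were Ccna2, Cdc20 and Cdk1. Ccna2, the cyclin that works in S phase as well as in G2, was at 240, 237 and 236 CPM in WT and at 184, 186 and 186 CPM in Tnfaip2-/- EBs (-0.36 ± 0.0265 SE; adjusted p = 1.72e-16, edgeR's quasi-likelihood test). Cdc20, which turns on the ubiquitin ligase that ends mitosis, was at 256, 245 and 248 CPM in WT and at 201, 201 and 210 CPM in Tnfaip2-/- EBs (-0.29 ± 0.0273; adjusted p = 4.75e-13). Cdk1, the kinase itself, was lower by less (233 ± 4.92 and 206 ± 3.01 CPM; -0.17; adjusted p = 1.98e-07). Its partner Ccnb1 moved the other way, so that the ratio of Ccnb1 to Cdk1 RPKM was 1.79, 1.84 and 1.76 in WT and 2.39, 2.46 and 2.42 in Tnfaip2-/- EBs. Aurkb, the kinase of the passenger complex, was not called (adjusted p = 0.579), at 76.4, 71.7 and 76.1 CPM in WT and 71.3, 74.2 and 75.3 CPM in Tnfaip2-/- EBs, with overlapping samples.

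The contrast between the classes was also seen among the genes with little shared sequence. Fewer than 5% of exon bases or windows were shared with other genes for 17 S-phase and 9 mitotic genes. Of those 17 S-phase genes 13 were lower and 1 higher (median -0.22), and of those 9 mitotic genes 1 was lower and 7 were higher (median 0.31). Left out were the higher S-phase genes Orc1, Orc6 and Rfc4 and the lower mitotic genes Ccna2 and Cdc20, which go against the contrast. Also left out were the lower S-phase genes Gins2, Mcm7, Cdc45, Pcna and Tyms and the higher mitotic genes Ccnb1 and Plk1. Orc2, not called, was left out too. These medians thus depend on which genes were left out. Beside the overlaps given above, genes on the opposite strand cover 12.5% of the exon bases of Ccna2, 10.8% of those of Orc1, 8.7% of those of Mcm7, 7.1% of those of Plk1 and 6.0% of those of Cdc45. Of 51-base windows, 10.0% of those of Cdc20 and 6.2% of those of Plk1 recur in a pseudogene, and 5.1% of those of Tyms in other genes.

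Further genes of the same processes, from lists made for this comparison, also differed in median between the classes. Of 50 further replication genes, 27 were lower, 13 higher and 10 not called, with a median log2 fold change of -0.12. The share called, 80.0%, was close to the 80.5% of genes at or above the level of the lowest of the 41. Those with the largest changes were Uhrf1, which carries DNA methylation over to the new strand (549 ± 7.71 and 319 ± 3.45 CPM; -0.79), Timeless, of the fork protection complex (147 ± 2.91 and 86.1 ± 3.17 CPM; -0.77), and Chtf18, of an alternative clamp loader (67.2 ± 0.498 and 39.9 ± 0.842 CPM; -0.75). These passed the test for more than a 1.5-fold change, as did Pold2, the small subunit that pairs with Pold1 (169 ± 4.18 and 107 ± 2.02 CPM; -0.66), which was named after its value was seen. Of 50 further mitotic genes, 28 were higher, 10 lower and 12 not called, with a median of 0.13, and 76.0% were called. The largest changes were in Kif23, a motor of the midbody at cell division (88.8 ± 1.6 and 185 ± 2.68 CPM; 1.05; adjusted p = 5.96e-32), Cenpf, of the kinetochore (119 ± 3.77 and 196 ± 3.22 CPM; 0.72), and Ckap2, of the spindle (99.8 ± 1.93 and 163 ± 2.74 CPM; 0.71). These were higher beyond 1.5-fold, and Cks1b, a small partner of cyclin-dependent kinases named after its value was seen, was lower beyond it (160 ± 4.41 and 98.4 ± 1.59 CPM; -0.70). In the promoter windows an E2F word was found for 31.7% of the further replication genes and a CHR word for 72.1% of the further mitotic genes. A CCAAT box was found for 46.3% of the further replication genes, close to the share of tested genes, and for 65.1% of the further mitotic genes.

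**Figure D4:**
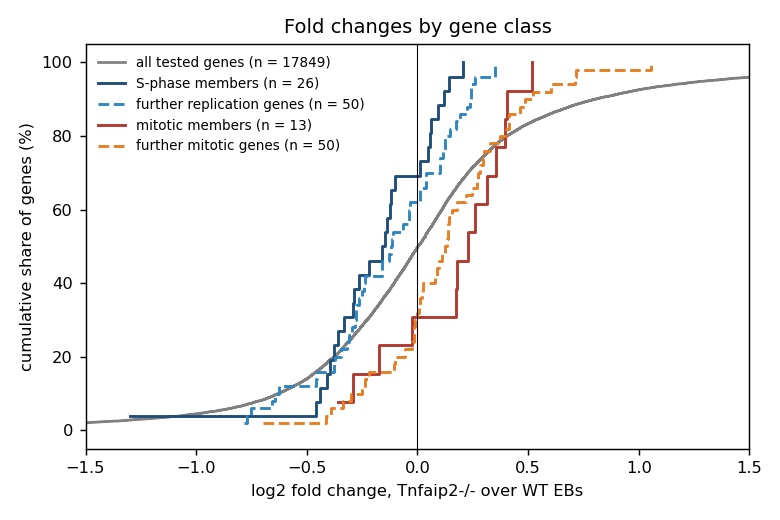
Cumulative share of genes, in percent, against log2 fold change, Tnfaip2-/- over WT EBs, for all 17849 tested genes, the 26 S-phase and 13 mitotic genes of the list and the 50 further genes of each process. The x axis is shown from -1.5 to 1.5; both replication curves lie left of both mitotic curves around 0, and the curve of all genes is wider than the other 4.

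Genes that govern E2F activity were mostly lower, but Rb1 was higher. Of 18 genes of the E2F, RB and DREAM group, 13 were lower, 3 higher and 2 not called, with a median log2 fold change of -0.31; 88.9% were called, beside 67.7% of all tested genes. Rb1, which holds activator E2Fs inactive in G1, was at 20.2, 21.5 and 21.8 CPM in WT and at 57.8, 58.5 and 58.8 CPM in Tnfaip2-/- EBs (1.46 ± 0.0472 SE; adjusted p = 7.23e-30, edgeR's quasi-likelihood test). Rbl2, its relative in the DREAM repressor, was at 5.78, 6.25 and 5.19 CPM in WT and at 10.5, 11.0 and 10.3 CPM in Tnfaip2-/- EBs (0.89 ± 0.0924; adjusted p = 1.08e-11). Both were higher in each Tnfaip2-/- sample, while Rbl1, the remaining family member, was lower (-0.33). The third gene called higher was Lin37, of the DREAM complex (0.15; adjusted p = 0.0481), whose samples overlapped between genotypes, and these last 2 genes were named after their values were seen. E2f8, an E2F that represses, was lower (45.9 ± 2.34 and 31.5 ± 1.21 CPM; -0.54). Mybl2 (-0.325; adjusted p = 4.23e-16) and Foxm1 (-0.114; adjusted p = 0.0025, edgeR's quasi-likelihood test) of the same group were also lower. Both were named after their values were seen, and whether their levels bear on those of the mitotic genes was not tested. Genes on the opposite strand overlap 14.9% of the exon bases of Rb1 and a larger share of those of Rbl2.

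Several cyclins, kinases and inhibitors of G1 changed by more than most of the 41 genes. Of 15 such genes, 8 were lower, 5 higher and 2 not called, with a median log2 fold change of -0.17. Thus 86.7% were called, beside 67.7% of all tested genes and 80.5% of those at or above the level of the lowest of the 41. Beyond 1.5-fold 5 were lower and 4 higher, beside 6.63% and 9.05% of all tested genes. Ccnd2, a D-type cyclin, was at 27.8, 28.8 and 28.6 CPM in WT and at 3.87, 3.24 and 3.43 CPM in Tnfaip2-/- EBs (-3.01 ± 0.0822 SE; adjusted p = 9.38e-33, edgeR's quasi-likelihood test). The others lower beyond 1.5-fold, named after their values were seen, were Cdk6 and Cdk4, the kinases that D-type cyclins switch on (-1.45 and -1.07), Ccnd1, a further D-type cyclin (-0.97), and Cdk2, the partner of cyclins E and A (-0.81). Those higher beyond it were the inhibitors Cdkn2b, Cdkn2c and Cdkn2a, which block Cdk4 and Cdk6 (or, for the other product of Cdkn2a, Mdm2), and Cdkn1a (p21), which blocks Cdk2, the last 2 named after their values were seen. Not all inhibitors rose. Cdkn1b (p27), more abundant than any of these in WT EBs in counts and per length, was lower (77.2 ± 2.95 and 60.6 ± 0.584 CPM; -0.35; adjusted p = 2.43e-11), as was Cdkn1c (p57; -0.39), and both were named after their values were seen. Cdkn1a was at 39.0 ± 1.56 CPM in WT and 74.3 ± 1.77 CPM in Tnfaip2-/- EBs, Cdkn2a at 1.85 ± 0.195 and 5.36 ± 0.574 CPM. Cdkn2c and Cdkn2b were near the limit of detection, at 0.528 ± 0.278 and 1.63 ± 0.131 CPM and at 0.348 ± 0.141 and 1.24 ± 0.342 CPM. Opposite-strand genes cover 19.7% of the exon bases of Cdk4, 23.4% of those of Ccnd1 and 30.7% of those of Cdkn1c, whose values are less certain for that reason.

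**Figure D5:**
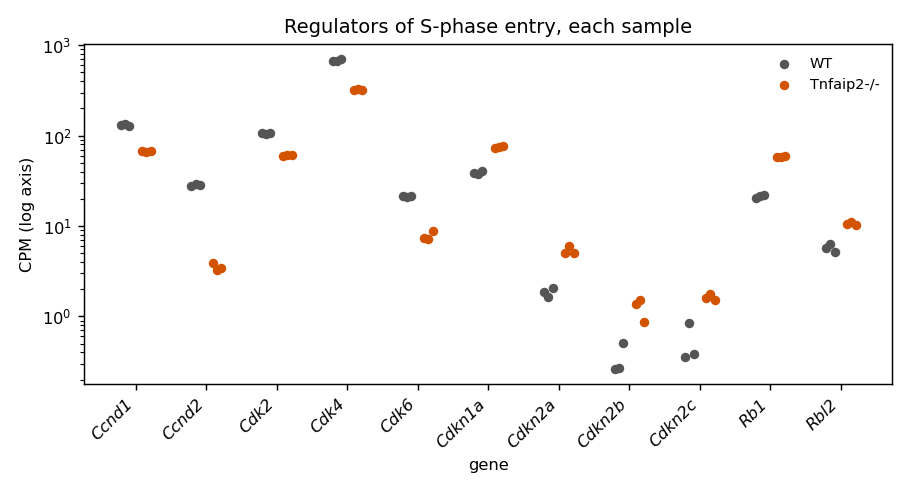
CPM, on a log axis, of 11 regulators of S-phase entry in each sample, WT in grey and Tnfaip2-/- in orange, 3 points per genotype. The genes are those that passed the test for more than a 1.5-fold change among 15 G1 genes and 18 E2F, RB and DREAM genes. The gap between the genotypes therefore follows from the choice. The other genes of these lists are not drawn. Among them are Cdkn2d, higher by less (log2 fold change 0.28), Cdkn1b, Cdkn1c, Rbl1 and Ccne1, lower by less, and Ccnd3 and Ccne2, not called. Cdkn2d and Ccne1 were named after their values were seen.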

How the data were processed

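RNA from WT and Tnfaip2-/- EBs was made into libraries with the TruSeq RNA v2 kit, which does not record strand, and read as single ends. After quality trimming, the authors aligned the reads to GRCm38 with TopHat2 and assigned uniquely aligned reads to Ensembl genes with featureCounts (versions 2.1.0 and 1.5.0 in the submitters' processing notes). The raw counts were deposited. Whether featureCounts used strand is not given in the sources used here. Total counts ranged from 21765931 to 23804489 per sample. Pairs of samples of a genotype differed by 1.4 to 2.09 times sampling noise over 13892 genes and pairs across genotypes by 56.8 to 60.9 times, so no sample was a copy of another. Groups and replicate numbers were taken from the sample labels.

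The counts were analysed with edgeR (4.0.16, R 4.3.3). Genes were kept by filterByExpr (minimum count 10), scaled by TMM, and tested with the quasi-likelihood test (robust) on genotype alone, with Benjamini-Hochberg adjustment over all 17849 genes kept and a threshold of 0.05. The 41 genes all passed the filter. The biological coefficient of variation was 0.0215. A further test asked for more than a 1.5-fold change (glmTreat). Standard errors were derived from the test statistic. RPKM used the union of exons in GENCODE M21 (GRCm38), which also gave overlaps and symbols. DESeq2 (1.42.0), other scalings, other filters and samples left out were tried as alternatives. The lists and the 41 genes were chosen with earlier results of these data known, so no list was tested; each is described by its counts and median. All 41 genes are named, with values per sample for the lowest and highest of each role and for genes not called. Of each further list, at most 3 called genes of largest change with a mean of at least 1 CPM in either genotype are named. Their values are given per sample or as mean ± SD. Genes named outside this rule are marked where they appear.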

Additional observations from a re-analysis of the deposited data

How the results depend on the processing

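The counts of 18 S-phase genes lower, and of 9 mitotic genes higher and 3 lower, were obtained under each alternative except the test for a 1.5-fold change, and under each omission of 1 sample. That test called 2798 genes, 1 S-phase gene lower and 0 higher, and 0 mitotic genes lower or higher; in edgeR its unadjusted p was below 0.05 for that 1 S-phase gene alone, and DESeq2 was not run against a fold. S-phase genes called higher, 4 in all, were 2 with DESeq2 and from 2 to 6 with 1 sample left out, at 2 without WT replicate 1, and the genes that crossed the threshold in these were Gmnn, Rfc4, Mcm6 and Orc2. Genes called ranged from 11537 to 11744 with 1 sample left out.

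The S-phase median was -0.126 with upper quartile scaling, -0.124 with total counts, -0.171 with no filter, -0.177 after a GC content and length correction chosen after seeing the data, and from -0.173 to -0.145 with 1 sample left out. The mitotic median was 0.256 with upper quartile scaling, 0.258 with total counts and from 0.207 to 0.254 with 1 sample left out. The median of all genes lay between -0.00571 and 0.0309. Of 697 values of single genes, 3 changed sign, all of genes not called: Aurkb with upper quartile scaling (0.002) and total counts (0.004), and Mcm3 with no filter (-0.006). Tnfaip2 was at -2.13 with DESeq2 and no longer called. The cause was not tested.

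The replicate numbers did not pair the samples: deviations of same-numbered samples correlated at -0.077, -0.071 and -0.073 over 15711 genes, and of others at 0.021 to 0.052. With the replicate block 11841 genes were called, the calls of the 41 genes did not change, and the medians stayed at -0.152 and 0.23. Depth limits Tnfaip2 and the low CDK inhibitors, where 3 counts equal 0.126 to 0.138 CPM.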

Other observations

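Genes of the replication checkpoint, which slows S phase when forks stall, moved in both directions. Of 12 such genes, 6 were lower, 4 higher and 2 not called (median log2 fold change -0.16), beside 67.7% called of all tested genes. Rad9a, a subunit of the clamp that senses damage, was at 53.2, 56.6 and 54.5 CPM in WT and at 40.4, 40.4 and 40.2 CPM in Tnfaip2-/- EBs (-0.44 ± 0.0421 SE; adjusted p = 7.96e-13, edgeR's quasi-likelihood test). Pkmyt1, a kinase that holds Cdk1 inactive, was lower (26.2 ± 0.691 and 19.5 ± 0.392 CPM; -0.43), and Atr, the kinase at the head of the pathway, was higher (47.9 ± 0.684 and 60.6 ± 2.99 CPM; 0.34). The summed level of the 12 genes was 588, 600 and 587 CPM in WT and 582, 564 and 579 CPM in Tnfaip2-/- EBs.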
